A study of Mus musculus with 4 samples.

Results

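A set of 10 regulators and markers of the progenitor and stem cells of the hair follicle was followed by gene symbol in RNA sequenced from newborn mouse keratinocytes. They were the Hedgehog receptor gene Ptch1 and the Hedgehog effectors Gli1 and Gli2, the transcription factors Sox9, Lhx2, Nfatc1, Runx1 and Tbx1, and the surface proteins Cd34 and Lrig1. All 10 were found among the 23970 gene symbols of the expression table. The 2 control libraries and the 2 Ovol2-deficient libraries came from epidermal keratinocytes of newborn mice at passage 0. All were grown in low-calcium E-media on growth-arrested J2-3T3 cells, a mouse fibroblast line used as a feeder layer, with no other treatment, and were collected before confluence after the feeders had been taken off. Ovol2 encodes a zinc-finger repressor of epithelia. The sources used here do not give how it was removed, the strain, the promoter behind any Cre or the number of animals behind a library. The p-values therefore measure only the spread between these libraries, which may be technical.

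Hair follicles hold several pools of epithelial stem and progenitor cells. The bulge cells, which feed hair regrowth, are known for Cd34, Sox9, Lhx2, Nfatc1 and Tbx1, while Lrig1 marks the junctional zone above them and the upper follicle. Hedgehog signalling drives growth of the follicle: without ligand the receptor Ptch1 holds back the transducer Smo, and ligand binding frees Smo to activate the Gli factors, which in turn raise Gli1 and Ptch1 transcription. The level of Gli1 and Ptch1 RNA is therefore widely used as a readout of the pathway. Keratinocytes of newborn skin include cells of young follicles as well as of the epidermis between them.

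Of the 10 genes, only Ptch1 passed the test: its RNA was 41.8% lower in the Ovol2-deficient libraries. The other 5 genes with a high enough level to be tested, Sox9, Nfatc1, Lrig1, Runx1 and Gli2, did not pass. Tbx1, Lhx2, Gli1 and Cd34 had a mean below 1 FPKM (the number of fragments, divided by transcript length and by the mapped fragments of that library) and are described by their values. Their mean FPKM was also lower in the deficient libraries, by 63.2% for Tbx1, 53.9% for Gli1, 31.9% for Cd34 and 22.3% for Lhx2. At such low levels these percentages are uncertain. Tests used limma on log2(FPKM + 1) across the 11350 genes with a mean of at least 1 FPKM, with Benjamini-Hochberg adjustment over all of them, and a fold change below is on that scale, which understates the change of low genes. Limma called 0.511% of the tested genes lower and 0.837% higher.

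The start of Ptch1 is shown because it is the member that passed the test, and that of Gli2 because it is the Hedgehog factor of the set with a level high enough to test. Each line gives the 250 bases before a RefSeq start, 5′ to 3′ on the strand of the gene (build GRCm38.p6, the same as mm10), with the GC box GGGCGG, a motif bound by Sp factors, in capitals. The Ptch1 window is chr13:63565736-63565985 on the minus strand, inside the annotated gene, which extends farther upstream. The Gli2 window is chr1:119053620-119053869 on the minus strand. No annotated GENCODE M21 exon overlaps either window.
Ptch1: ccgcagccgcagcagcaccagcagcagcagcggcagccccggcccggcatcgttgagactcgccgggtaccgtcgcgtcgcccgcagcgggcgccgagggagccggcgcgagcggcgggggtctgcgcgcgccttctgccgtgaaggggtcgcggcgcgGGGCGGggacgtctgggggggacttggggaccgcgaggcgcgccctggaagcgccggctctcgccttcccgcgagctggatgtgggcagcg
Gli2: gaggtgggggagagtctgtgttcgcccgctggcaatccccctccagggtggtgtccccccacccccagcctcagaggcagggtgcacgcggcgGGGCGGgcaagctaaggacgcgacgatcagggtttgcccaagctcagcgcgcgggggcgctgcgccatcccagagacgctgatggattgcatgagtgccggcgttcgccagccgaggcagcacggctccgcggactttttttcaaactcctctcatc
The Ptch1 window was 78.4% G and C and held 41 CpG pairs, and the Gli2 window was 67.2% G and C with 22, against medians of 52.4% and 6 over the 32851 RefSeq windows. Each held 1 GC box on the strand shown, a motif found on either strand in 32.7% of all windows. The Gli factor motif TGGGTGGTC (GACCACCCA on the other strand), present in 0.225% of all windows, was not found in these 250 bases of either gene. It was also not found in the other windows of the 7 members that had an entry, which says only that these letters are not there.

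The level of the 10 genes spanned more than 2 orders of magnitude in FPKM, a unit set per length of transcript. In the controls Sox9 was the highest, with a mean of 56.1 FPKM, above 87.0% of the tested genes. Runx1 followed at 22.1, then Ptch1 at 11.3, Lrig1 at 10.2, Nfatc1 at 7.87 and Gli2 at 3.74. Ptch1 and Lrig1 were neighbours whose values met, since Lrig1 stood at 11.1 in control 2 and Ptch1 at 11.0 in control 1. In the Ovol2-deficient libraries the means of Lrig1 (9.79) and Nfatc1 (9.11) lay above that of Ptch1 (6.57), so that Ptch1 moved from the third to the fifth place in the order. Below 1 FPKM in most libraries came Tbx1, Lhx2, Gli1 and Cd34, for which the authors' deposited table gave a mean normalized signal over all samples of 21.3, 18.6, 20.6 and 6.31, against 605.8 for Ptch1 and 3256 for Sox9.

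**Figure D1:**
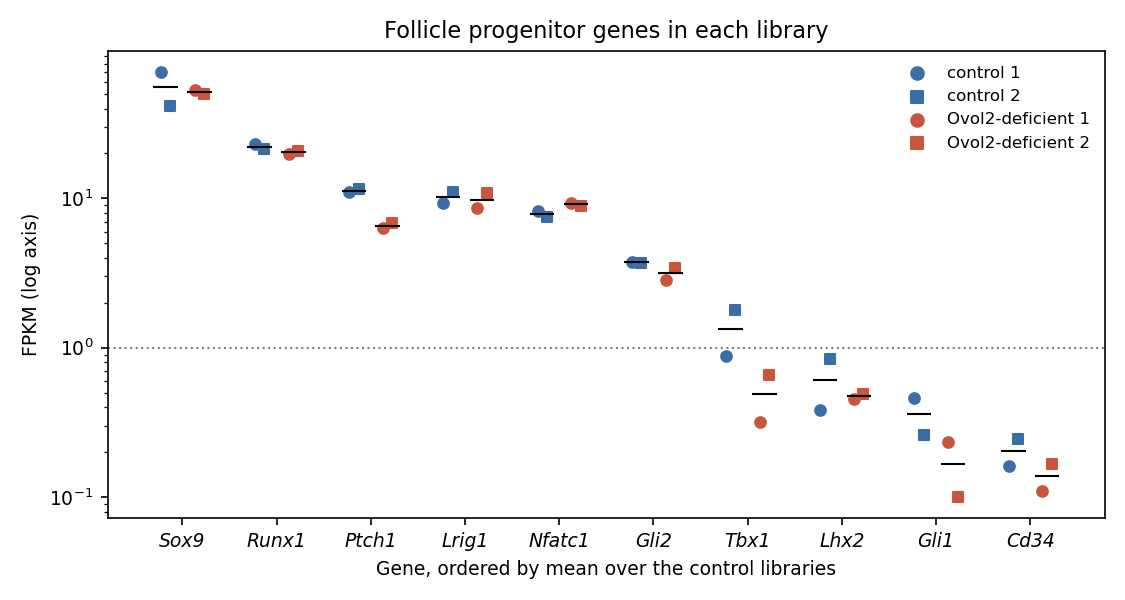
FPKM on a log axis for the 10 genes in each of the 4 libraries (circles for library 1, squares for library 2, blue for control, red for Ovol2-deficient), with the mean of each group as a black line and a dotted line at 1 FPKM. The Ptch1 values of 6.31 and 6.83 in the deficient libraries lie clear of 11.0 and 11.5 in the controls, while Sox9 overlaps.

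Ptch1 (ENSMUSG00000021466.12, mm10, chr13:63508328-63573598, minus strand), which encodes the receptor that binds Hedgehog ligands, stood at 11.0 and 11.5 FPKM in the controls, against 6.31 and 6.83 in the deficient libraries. Both deficient libraries were low, and the gap between the groups was several times the distance within either. Means were 11.3 ± 0.347 and 6.57 ± 0.363 FPKM (SD, n = 2 per group), and Ptch1 fell by 0.70 on the log2 scale (SE 0.10, limma adjusted p = 0.0395). This change had a 95% interval of -0.95 to -0.45 and ranked 66 among the 11350 tested genes counted from the largest fall. In the authors' deposited table the log2 fold change was -0.68 with an adjusted p of 0.000128, in a table that called 2.1% of its genes lower. Whichever library was left out, it stayed between -0.75 and -0.65, but the call was lost without Ovol2-deficient library 1 (adjusted p = 0.197) or library 2 (adjusted p = 0.158). It was also lost, at a similar fold change, under quantile normalization (adjusted p = 0.0554), without limma's variance trend (0.0659) and when all genes above 0 were tested (0.224).

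Gli1 (ENSMUSG00000025407.7, chr10:127329882-127341974, minus strand), a Gli activator and target of the pathway, stood at 0.461 and 0.261 FPKM in the controls, against 0.233 and 0.101 in the deficient libraries. Both deficient values were below both controls, by a small margin at a level near the bottom of the table. The fold change under the setting that tests every gene above 0 was -0.22 on the log2 scale (SE 0.10, limma adjusted p = 0.435). Exons of Arhgap9 and Gm47200 overlap those of Gli1 on the other strand, and the library protocol names no strand, so reads of these genes cannot be told apart there.

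Gli2 (ENSMUSG00000048402.14, chr1:118834132-119053619, minus strand), the main activator among the Gli factors in skin, stood at 3.77 and 3.70 FPKM in the controls, against 2.86 and 3.43 in the deficient libraries. The groups did not overlap, but the deficient libraries differed from each other by more than library 2 differed from the controls. Its log2 fold change of -0.20 (SE 0.13) did not pass (limma adjusted p = 0.512), with a 95% interval of -0.51 to 0.12.

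The other Hedgehog genes were followed in a list of 18, of which 11 were tested, with a median log2 fold change of -0.06 against -0.0014 for all tested genes. None of the 11 passed in limma. An unadjusted p under 0.05, which 17.4% of all tested genes had, was found for 1 of the 11, and the authors' deposited table called that gene, Gpr161, lower. Among the ligands, Shh was listed at 0 in all 4 libraries. Ihh stood at 0.034 to 0.102 FPKM, and Dhh stood at 0.492 and 0.820 in the controls, against 1.07 and 0.872 in the deficient libraries. No Hedgehog ligand had a mean of 1 FPKM. The transducer Smo was the most abundant gene of the list, at 31.6 and 34.2 in the controls, against 29.9 and 29.5 in the deficient libraries (log2 fold change -0.14, adjusted p = 0.492).

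Gpr161, a ciliary receptor that restrains the pathway, came nearest to a call. It stood at 26.1 and 27.7 FPKM in the controls, against 19.4 and 19.7 in the deficient libraries, with no overlap. Its log2 fold change was -0.44 (SE 0.09), with a limma adjusted p of 0.0668. The authors' deposited table gave it a log2 fold change of -0.41 with an adjusted p of 0.0411. Its adjusted p in limma was 0.0467 with a filter of 5 FPKM, 0.224 with no filter, and 0.0603 to 0.278 with 1 library left out, at log2 fold changes of -0.48 to -0.40.

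The remaining Hedgehog genes named here lay near 0 change. The log2 fold change of Gli3, which acts mostly as a repressor, was -0.07 (limma adjusted p = 0.868). That of Sufu, which binds and restrains Gli proteins, was -0.03 (adjusted p = 0.931). Kif3a, a motor of the primary cilium, stood at a log2 fold change of 0.10 (adjusted p = 0.651). Hhip, a decoy receptor and pathway target, was listed at 0 in 3 libraries and at 0.009 in Ovol2-deficient library 1.

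**Figure D2:**
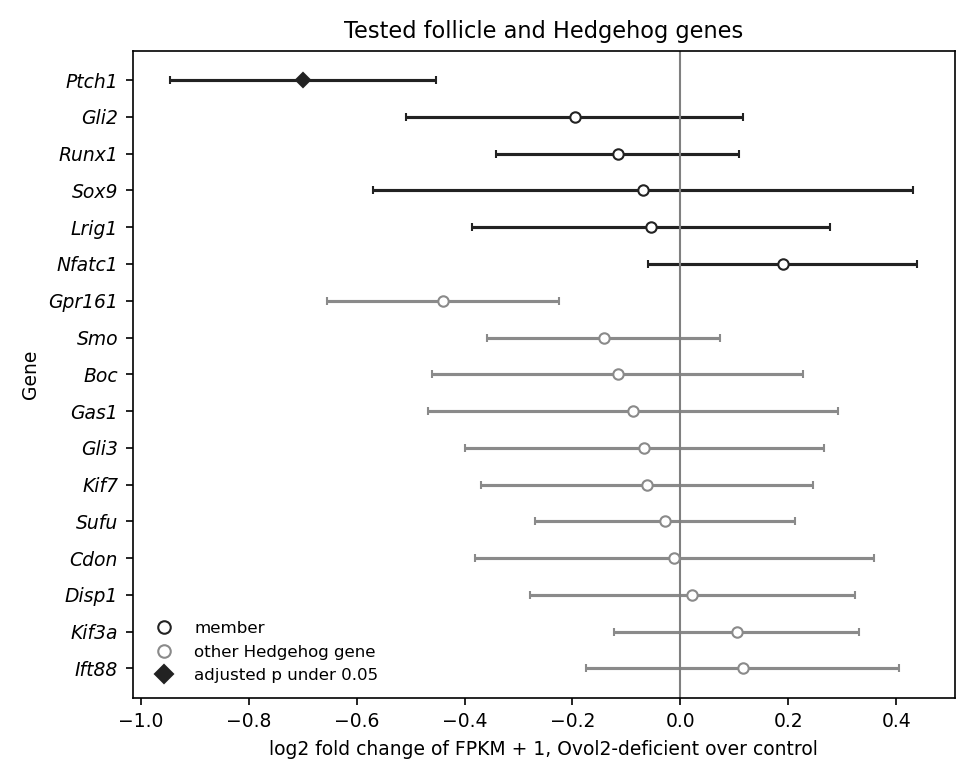
Log2 fold change of FPKM + 1, Ovol2-deficient over control, with its 95% interval from limma, for the 6 tested members (black) and the 11 tested genes of the Hedgehog list (grey); a filled diamond marks an adjusted p under 0.05. Ptch1 at -0.70 is the only filled symbol, followed by Gpr161 at -0.44.

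Sox9 (ENSMUSG00000000567.5, chr11:112782224-112787760, plus strand), needed to form and keep the bulge stem cells, stood at 70.3 and 41.9 FPKM in the controls, against 53.2 and 50.2 in the deficient libraries. Both deficient values fell between the controls, which differed 1.68-fold from each other. Means were 56.1 ± 20.1 and 51.7 ± 2.08 (SD, n = 2 per group), and the log2 fold change of -0.07 (SE 0.21) did not pass (limma adjusted p = 0.912). Its 95% interval, -0.57 to 0.43, covers changes in either direction. The sign rested on single controls, since the log2 fold change was 0.30 without control 1 and -0.44 without control 2, and neither passed.

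Runx1 (ENSMUSG00000022952.17, chr16:92601466-92826149, minus strand), which promotes activation of follicle stem cells, stood at 23.0 and 21.3 FPKM in the controls, against 19.8 and 20.9 in the deficient libraries. The groups did not overlap, but the difference was small. Its log2 fold change was -0.12 (SE 0.10, limma adjusted p = 0.606). An exon of Gm26626 overlaps Runx1 on the other strand.

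Nfatc1 (ENSMUSG00000033016.16, on chromosome 18), which keeps bulge cells quiet, was the member with higher values in the deficient libraries, at 9.29 and 8.93 FPKM against 8.22 and 7.52 in the controls. The groups did not overlap. The log2 fold change of 0.19 (SE 0.11) did not pass (limma adjusted p = 0.421), and it kept its direction, at 0.13 to 0.25, whichever library was left out.

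Tbx1 (ENSMUSG00000009097.10, chr16:18580979-18590671, minus strand), which limits the response of bulge cells to BMP signals, stood at 0.883 and 1.78 FPKM in the controls, against 0.319 and 0.662 in the deficient libraries. Both deficient values lay below both controls, and library 2 was the higher one in each group. When all genes above 0 were tested, its log2 fold change was -0.63 (SE 0.24, limma adjusted p = 0.365). For Tbx1 the authors' deposited table listed a log2 fold change of -0.33 with a p of 0.0521 and no adjusted p.

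Lhx2 (ENSMUSG00000000247.11, chr2:38339281-38369733, plus strand), a LIM homeobox factor that keeps follicle stem cells from differentiating, stood at 0.382 and 0.834 FPKM in the controls, against 0.454 and 0.491 in the deficient libraries. Its groups overlapped, and control 2 alone was high. Tested with all genes above 0, its log2 fold change was -0.11 (limma adjusted p = 0.785).

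Lrig1 (ENSMUSG00000030029.14, chr6:94604529-94700158, minus strand), a membrane protein that dampens growth factor receptors, stood at 9.25 and 11.1 FPKM in the controls, against 8.67 and 10.9 in the deficient libraries. In each group library 2 was the higher, and the groups overlapped. A log2 fold change of -0.05 (SE 0.14) did not pass (limma adjusted p = 0.893), with a 95% interval of -0.39 to 0.28. Its sign turned when control 2 (0.07) or Ovol2-deficient library 1 (0.10) was left out. An exon of Slc25a26 overlaps Lrig1 on the other strand.

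Cd34 (ENSMUSG00000016494.9, chr1:194938819-194961279, plus strand), the sialomucin used to sort bulge cells from adult mouse skin, stood at 0.160 and 0.244 FPKM in the controls, against 0.110 and 0.166 in the deficient libraries. It was the lowest of the 10 genes in the controls, and its groups overlapped. Its log2 fold change with all genes above 0 tested was -0.08 (limma adjusted p = 0.618). Gm16897 overlaps an exon of Cd34 on the other strand. In bulk RNA, fewer cells of a kind and less RNA per cell cannot be told apart, for these genes as for Ptch1.

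Counted together, the 2 deficient values were both below the 2 controls for 5 of the 10 genes (Runx1, Tbx1, Gli1, Gli2 and Ptch1) and above them for Nfatc1. Over the 17605 genes with any signal, 19.2% had lower and 23.4% higher values without overlap. Among the 6 tested members the counts were 3 lower and 1 higher, against 24.0% and 24.1% of all tested genes. The median log2 fold change of those 6 was -0.09, beside -0.0014 over all tested genes, and moved to -0.19 without control 2 and to -0.18 without Ovol2-deficient library 2. The 6 tested members did not move as a block: their log2 fold changes ran from -0.70 to 0.19, and 5 of the 6 lay within 0.20 of 0. The 4 members not tested all had lower means in the deficient libraries. Their log2 fold changes were -0.63 (Tbx1), -0.22 (Gli1), -0.11 (Lhx2) and -0.08 (Cd34), with overlap of the groups for Lhx2 and Cd34.

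**Figure D3:**
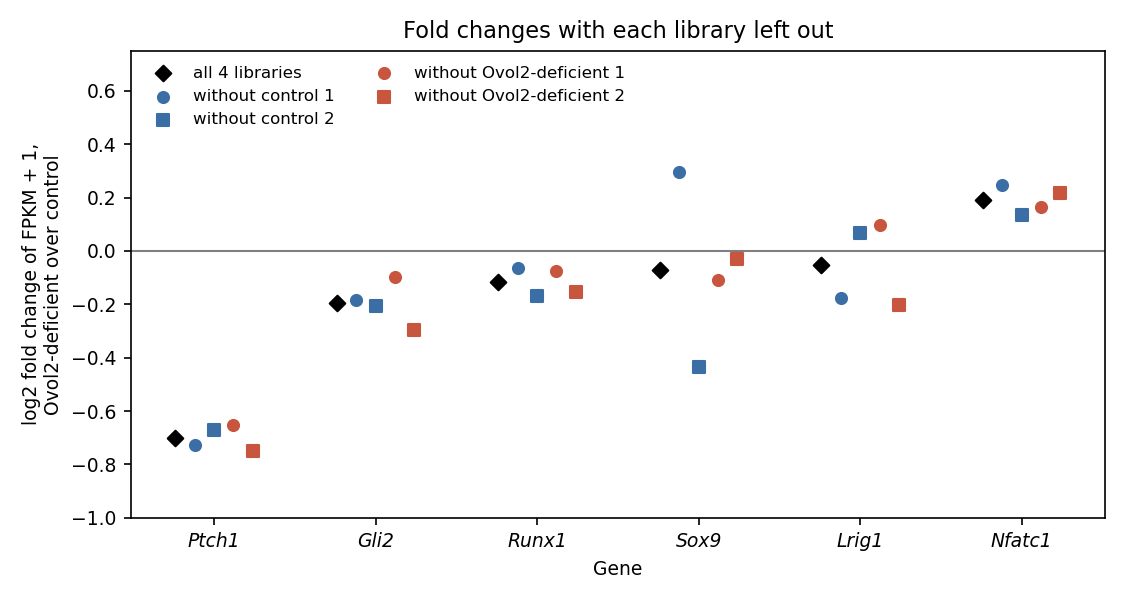
Log2 fold change of FPKM + 1, Ovol2-deficient over control, for the 6 tested members with all 4 libraries (black diamonds) and with each library left out (blue for a control left out, red for a deficient library left out). Ptch1 stays between -0.75 and -0.65, while Sox9 ranges from -0.44 to 0.30.

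A list of 22 other genes of follicle stem and progenitor compartments had 14 tested members with a median log2 fold change of -0.01. None passed in limma, and 5 of the 14 had an unadjusted p under 0.05 (17.4% of all tested genes), Foxc1, Dkk3 and Fst lower and Prdm1 and Hopx higher. The follicle stem cell markers Lgr5 and Lgr6 were near the bottom of the table, Lgr5 at 0 to 0.037 FPKM and Lgr6 at 0.020 to 0.165. Krt15, the keratin of bulge and basal cells, stood at 41.9 and 13.1 in the controls, against 21.9 and 22.0 in the deficient libraries. As for Sox9, control 1 was high, control 2 low and the deficient libraries in between. The log2 fold change of Krt15 was -0.10 (SE 0.43, limma adjusted p = 0.941), with calls in opposite directions when a control was left out: 0.70 without control 1 (adjusted p = 0.0179) and -0.90 without control 2 (adjusted p = 0.0111).

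Krt17, a keratin of the outer root sheath and of activated keratinocytes, stood at 2363 and 2550 FPKM in the controls, against 2130 and 1899 in the deficient libraries (log2 fold change -0.29, limma adjusted p = 0.305, and -0.075 under quantile normalization). Plet1, a surface marker of the upper isthmus, stood at 96.0 and 90.9 against 119.6 and 100.6 (log2 fold change 0.23, adjusted p = 0.347). Fst, which encodes the activin inhibitor follistatin, was at a log2 fold change of -0.29 (adjusted p = 0.242). Id2, an inhibitor of basic helix-loop-helix factors, was at 0.14 on that scale (adjusted p = 0.594), and Tcf7l1, a repressor of Wnt targets in bulge cells, at 0.15 (adjusted p = 0.512). With 1 library left out, Id2 ranged from 0.015 to 0.26 and Plet1 from 0.11 to 0.35 on the log2 scale. The authors' deposited table called Krt17 lower (log2 fold change -0.28, adjusted p = 0.04997) and Prdm1 higher (0.79, adjusted p = 0.00124), where it called 2.33% of its genes higher.

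Prdm1, Hopx, Foxc1 and Dkk3 are named after their values were seen. Foxc1, a factor that helps keep bulge cells quiet, had means of 15.2 and 11.9 FPKM in control and deficient libraries (log2 fold change -0.33, limma adjusted p = 0.145), and Dkk3, a secreted protein of the dickkopf family, of 4.10 and 2.86 (-0.40, adjusted p = 0.157). Prdm1, the factor Blimp1 of sebaceous and terminally differentiating cells, stood at 3.03 and 1.79 FPKM in the controls, against 6.31 and 4.28 in the deficient libraries (log2 fold change 0.89, SE 0.22, limma adjusted p = 0.102). Hopx, a homeodomain protein found in bulge cells and in suprabasal keratinocytes, stood at 39.9 and 23.9 against 88.9 and 47.4 (log2 fold change 1.05, SE 0.31, adjusted p = 0.149). For both genes library 1 was above library 2 in each group. In these libraries 1 of 9 tested differentiation markers, Lce1c, rose and 8 did not pass, with a median log2 fold change of 1.10. An unadjusted p under 0.05, which 17.4% of all tested genes had, was found for 5 of the 9, all of them higher. The authors' deposited table called 1 higher. The summed level of the differentiation markers was 1111 and 717.2 FPKM in the controls, against 1731 and 1147 in the deficient libraries. Their part in the values of Prdm1 and Hopx was not tested. Both depended on the libraries. Prdm1 passed in limma without control 1 (log2 fold change 1.16, adjusted p = 0.0207) but was at 0.63 without control 2 (adjusted p = 0.159) and, when Ovol2-deficient library 1 was left out, at 0.66 (adjusted p = 0.381). Hopx passed in limma without control 1 (1.41, adjusted p = 0.0311) but was at 0.69 without control 2 (adjusted p = 0.272) and, when Ovol2-deficient library 1 was left out, at 0.60 (adjusted p = 0.468).

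**Figure D4:**
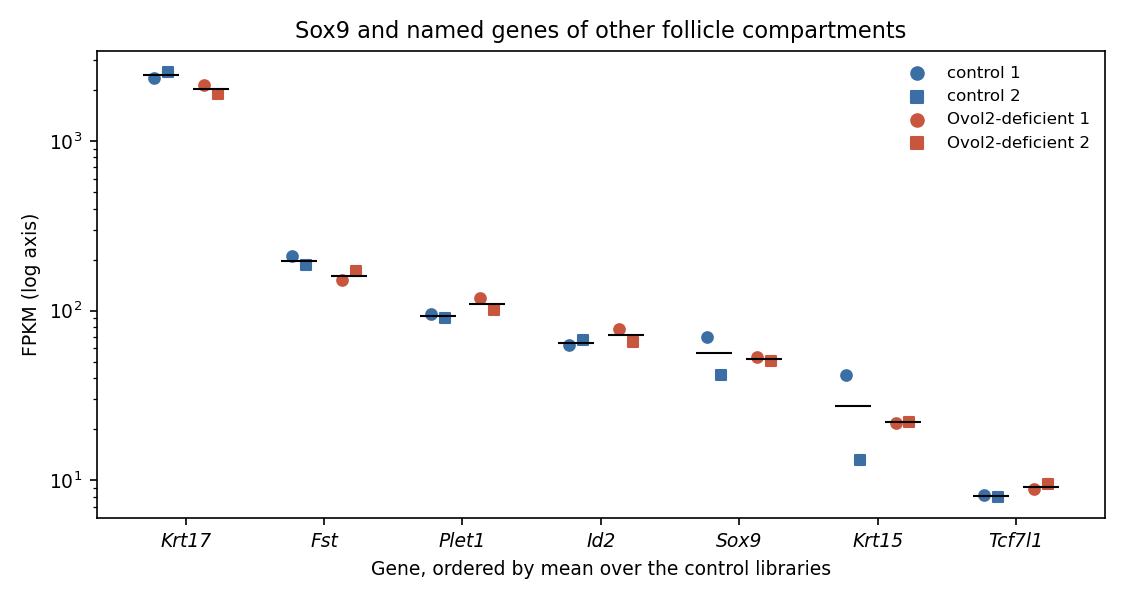
FPKM on a log axis in each library for Sox9 and 6 named genes of other follicle compartments, with symbols and group means drawn as for the 10 members. The controls stand far apart for Sox9 (70.3 and 41.9) and Krt15 (41.9 and 13.1), and the deficient libraries lie between them.

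Of 14 paralogs of the members, 7 were tested (median log2 fold change -0.06). None passed in limma, with 0 at an unadjusted p under 0.05 and 0 called in the authors' deposited table. Those with the highest levels were Nfat5, at 22.1 and 25.1 FPKM in the controls, against 23.8 and 36.8 in the deficient libraries, and Nfatc3, at 23.2 and 24.3 against 23.0 and 22.3. Nfat5 overlapped between the groups (log2 fold change 0.32, adjusted p = 0.451), with Ovol2-deficient library 2 alone high (0.015 without it), and both of these NFAT genes were more abundant than Nfatc1. Lrig3 (log2 fold change -0.06, adjusted p = 0.843) and Runx2 (-0.11, adjusted p = 0.685) likewise did not pass, and Runx2, at a mean of 4.37 FPKM in the controls, was well below Runx1.

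Among 20 markers of the follicle placode, matrix, inner root sheath and hair shaft, 8 were tested (median log2 fold change 0.01). None passed in limma, 1 of the 8 had an unadjusted p under 0.05 (17.4% of all tested genes), and 0 were called in the authors' deposited table. That gene, Padi3, named after its value was seen, encodes an enzyme that modifies trichohyalin and stood at 1.51 and 2.11 FPKM against 0.790 and 0.855 (log2 fold change -0.62, limma adjusted p = 0.125). The homeobox gene Msx2 stood at 14.5 and 12.7 FPKM in the controls, against 13.4 and 10.7 in the deficient libraries, and Gata3, a factor of the inner root sheath and of epidermis, at 12.3 and 12.2 against 12.8 and 10.2. Hoxc13, a regulator of hair keratins, stood at 11.5 and 8.95 against 12.2 and 9.92. Tchh, which encodes the inner root sheath protein trichohyalin, stood at 7.00 and 5.35 against 9.57 and 7.15, with no overlap and an adjusted p of 0.304. The hair shaft keratins Krt31, Krt35 and Krt85 and the inner root sheath keratins Krt25, Krt27, Krt28, Krt71 and Krt73 all had values below 0.2 FPKM. Krt75, a further keratin of this list named after its value was seen, was higher than these. It stood at 3.92 and 3.37 FPKM in the controls, against 5.66 and 3.65 in the deficient libraries, with overlap (log2 fold change 0.26, limma adjusted p = 0.532).

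Markers of other cells were read beside these results. Markers of keratinocytes, the labelled cell type, were abundant, with a summed level of 6925 to 7310 FPKM for 10 keratinocyte genes in the controls and 5703 to 6607 in the deficient libraries, at a median log2 fold change of -0.28. None of them passed in limma, 5 of 10 had an unadjusted p under 0.05 (17.4% of all tested genes), and the authors' deposited table called 4 lower. Fibroblasts, in which Ptch1, Gli1, Gli2, Runx1 and Cd34 can be expressed, had 16 markers with a summed level of 397.3 and 410.1 FPKM in the controls, against 555.4 and 582.7 in the deficient libraries. Of 14 tested fibroblast markers 3 rose (Fbln2, Loxl1 and Pcolce) and 11 did not pass, with a median log2 fold change of 0.50. At an unadjusted p under 0.05 there were 13 higher and 1 lower, and the authors' deposited table called 9 higher. The lower one was Fbln1, with means of 9.84 FPKM in the controls and 7.25 in the deficient libraries (log2 fold change -0.39, limma adjusted p = 0.108), while Lum stayed at or below 0.078 FPKM. Skin fibroblasts and any remaining J2-3T3 feeder cells, both of mouse, cannot be told apart by these markers. The part of either in the values of Ptch1 and the other members was not tested. None of 6 tested melanocyte markers passed in limma (4 at an unadjusted p under 0.05, median log2 fold change 0.37), and the authors' deposited table called 1 higher. None of 3 endothelial and 2 immune markers tested passed in limma, 0 were at an unadjusted p under 0.05 and 0 were called in the authors' deposited table. The endothelial marker Cdh5 was listed at 0 in all 4 libraries, and so was the immune marker Cd52, while Ptprc was at most 0.066. Of 8 tested proliferation markers 7 passed in limma as lower, with a median log2 fold change of -0.73. Their summed level was 229.2 and 256.9 FPKM in the controls against 149.3 and 138.5 in the deficient libraries. The other, Aurkb, was also lower (log2 fold change -0.81, limma adjusted p = 0.0581). All 8 were lower without overlap and had an unadjusted p under 0.05, and the authors' deposited table called all 8 lower. The proliferation markers moved with Ptch1, and their part in its fall was not tested.

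**Figure D5:**
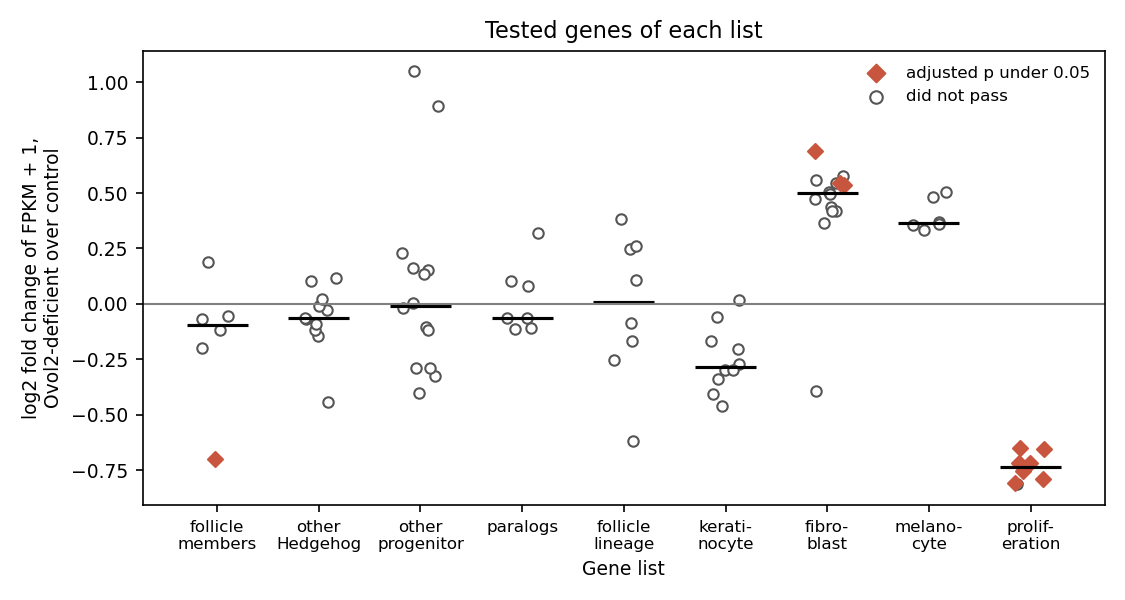
Log2 fold change of FPKM + 1, Ovol2-deficient over control, for each tested gene of 9 lists, with list medians as black lines and genes at an adjusted p under 0.05 as red diamonds. Ptch1 is the red diamond of the follicle members, and the fibroblast and proliferation lists lie on opposite sides of 0 with medians of 0.50 and -0.73.

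Ovol2 itself stood at 2.68 and 2.14 FPKM in the controls, against 1.45 and 0.941 in the deficient libraries, a log2 fold change of -0.64 that did not pass (limma adjusted p = 0.129). The authors' deposited table gave Ovol2 a log2 fold change of -0.36 with an adjusted p of 0.441. An exon of 1700108N11Rik overlaps Ovol2 on the other strand, and reads of these genes cannot be told apart there. The sources used here also do not say which stretch of Ovol2 was altered, so its level does not fully check the labels. Library depth was not given as counts, and summed FPKM ran from 394321 to 422272.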

How the data were processed

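RNA libraries were made by amplifying full-length cDNA and tagmenting it with a Nextera kit, per the labels' protocols. TopHat, HTSeq and mm10 were used, per the submitters' processing notes, with no versions and no annotation named. The authors deposited FPKM values for 4 libraries (24487 rows), per the file headers. They also deposited a comparison of mutant with control (24062 rows) that holds p-values, adjusted p-values, a log2 fold change with its SE, a mean normalized signal and a score of the test, per the file headers. The labels do not use the names of the 2 mutant columns, which were assigned to the Ovol2-deficient group without a tie to a single sample, and library numbers are those of the table.

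A repeated header line and 27 date-like symbols were removed, and rows sharing a symbol were summed. The test was limma 3.58.1 in R 4.3.3 on log2(FPKM + 1) for genes with a mean of at least 1 FPKM, with group as the only term, a variance trend and a threshold of 0.05 on the adjusted p. The design allowed for counts, but the files held none, so the limma branch was used. Between any pair of libraries 5 to 13 tested values were identical, so none was a copy. Groups of 2 are too small for a permutation test, so p-values rest on the model. The fit was tested on simulated data with known changes. Their spread was drawn from the fit's own model, so this does not check that model on the real libraries. Members, gene lists and tests were chosen with earlier results of these data known. Named genes were the 10 members, Ovol2, called genes and the 4 highest of each follicle or Hedgehog list, and 13 chosen pathway and bulge genes. A gene that this rule names is not reported here. Alternatives changed the pseudocount, filter, normalization, variance trend, block or libraries. Coordinates are from GENCODE M21 and promoter windows from RefSeq (GRCm38.p6, 7 of 10 members matched).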

Additional observations from a re-analysis of the deposited data

How the results depend on the processing

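Ptch1 stayed lower in all 11 alternatives, with log2 fold changes of -0.77 to -0.65 and adjusted p of 0.0217 to 0.224, and passed in limma in 6 of them. No member passed when all genes above 0 were tested, under quantile normalization or without the variance trend (0 members each), and 0 to 1 passed with 1 library left out. The number of all genes called was 153, and became 3 with no filter, 267 with a filter of 5 FPKM, 5 under quantile normalization, 6 without the variance trend, 518 with the replicate block, and 10 to 466 with 1 library left out; the cause was not tested. The median log2 fold change of the members tested in each fit was -0.19 to -0.096 with 1 library left out. The filter was set anew for each fit, and without Ovol2-deficient library 1 Tbx1 also reached it. The median of -0.096 is from that fit and so is of a larger set. Signs turned with 1 library left out for Sox9 (-0.44 to 0.30), Lrig1 (-0.20 to 0.10), Krt15 (-0.90 to 0.70), Sufu (-0.061 to 0.0048), Lrig3 (-0.15 to 0.024), Gata3 (-0.23 to 0.059), Hoxc13 (-0.054 to 0.27) and Gli3 (-0.20 to 0.062). The library 1 minus library 2 differences of controls and deficient libraries had a correlation of 0.22 over 11350 genes (genes are not replicates), and with 2 pairs the shared numbers do not establish a pairing. With the replicate number as a block, 1 member passed as before, and Gpr161 (adjusted p = 0.0488), Prdm1 (0.0183) and Hopx (0.00311) passed in limma. Counts per library were not given, and no counting error was set on the genes below 1 FPKM.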
